A study of Cyprinus carpio with 18 samples.

Results

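Whole embryos of common carp (Cyprinus carpio) at the organ formation stage, 20 hours post-fertilization (hpf), were compared with embryos at the stage that the labels call blastocyst, 6 hpf. The comparison used 6 of the 18 RNA sequencing libraries of a developmental series, 3 for each of the 2 stages, chosen by their stage labels alone. All embryos were wild type, belonged to the selected strain FFRC No.2, were obtained by natural spawning and received no treatment, so age was the only labelled difference between the groups. The 3 gastrulation libraries, at 12 hpf, lie between the compared stages and were set beside them. Equal amounts of RNA were pooled within each stage before the libraries were made, so the spread between libraries of a stage may be technical, and the p-values measure that spread only. The deposited table holds 90808 features, of which 69265 had enough reads to be tested. A feature was said to rise or fall when its adjusted p in edgeR was under 0.05, and levels are given as CPM, read counts per library size after edgeR's trimmed mean of M-values (TMM) scaling.

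At the earlier stage a fish embryo is a cap of dividing, still unspecialised cells on the yolk, and much of its messenger RNA was laid down in the egg. Zygotic transcription then replaces that maternal store, gastrulation places the germ layers, and during organ formation the somites, neural tube, eye, heart, blood and notochord differentiate. Common carp carries duplicated copies of many genes from an ancient tetraploidy, so that a gene known as 1 locus in zebrafish often has several copies here. Near-identical copies can exchange reads in counting, and the level of any 1 copy is uncertain to that degree.

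The libraries held 34014020 to 35620823 counted reads at blastocyst, 18982510 to 43270557 at gastrulation and 19624716 to 21170153 at organ formation. Of the tested features, 34963 rose from blastocyst to organ formation (50.5%) and 16347 fell (23.6%). The filter used all 18 libraries, and 9464 of the rises had no blastocyst read. At least 4-fold rises outnumbered falls of that size, 27593 against 7136. Tested against a 2-fold change rather than 0, 42.2% of features rose and 14.4% fell. The 3 libraries of each stage did not overlap for 75.8% of the tested features. The median log2 change over all tested features was 1.13, and it was 0.83 when libraries were scaled by their totals, 1.24 with DESeq2's size factors and 0.47 with the denominators implied by the deposited RPKM (reads scaled by feature length and library size). With those denominators 28926 features rose and 22013 fell, and limma on log2(RPKM + 0.1), over the 46868 features it tested, called 18088 rises and 19318 falls. With TMM, too, the outcome moved with the features and libraries used. Over the tested features that each fit shared, the median was 0.86 without a filter and 0.84 without the third blastocyst library. It was 0.86 without any 1 gastrulation library. Filtered and fitted on the 6 compared libraries alone, 25679 of 56058 features rose and 18223 fell, with a median of 0.52. Small changes therefore carry the choice of scaling, filter and libraries, and a gene list is read against these medians. The gene lists hold protein-coding features only. Of all 41841 tested features of that class 45.6% rose and 29.0% fell, with a median log2 change of 0.58. The log2 difference of gastrulation from blastocyst moved further. Against TMM its median shift was -0.65 with library totals, -0.97 with the RPKM denominators and 0.05 with DESeq2's size factors. A small rise in CPM from blastocyst to gastrulation can thus be lost or turned under another scaling. In whole embryos a lower level can mean fewer cells of a type or less RNA in each cell, and these cannot be told apart.

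**Figure D1:**
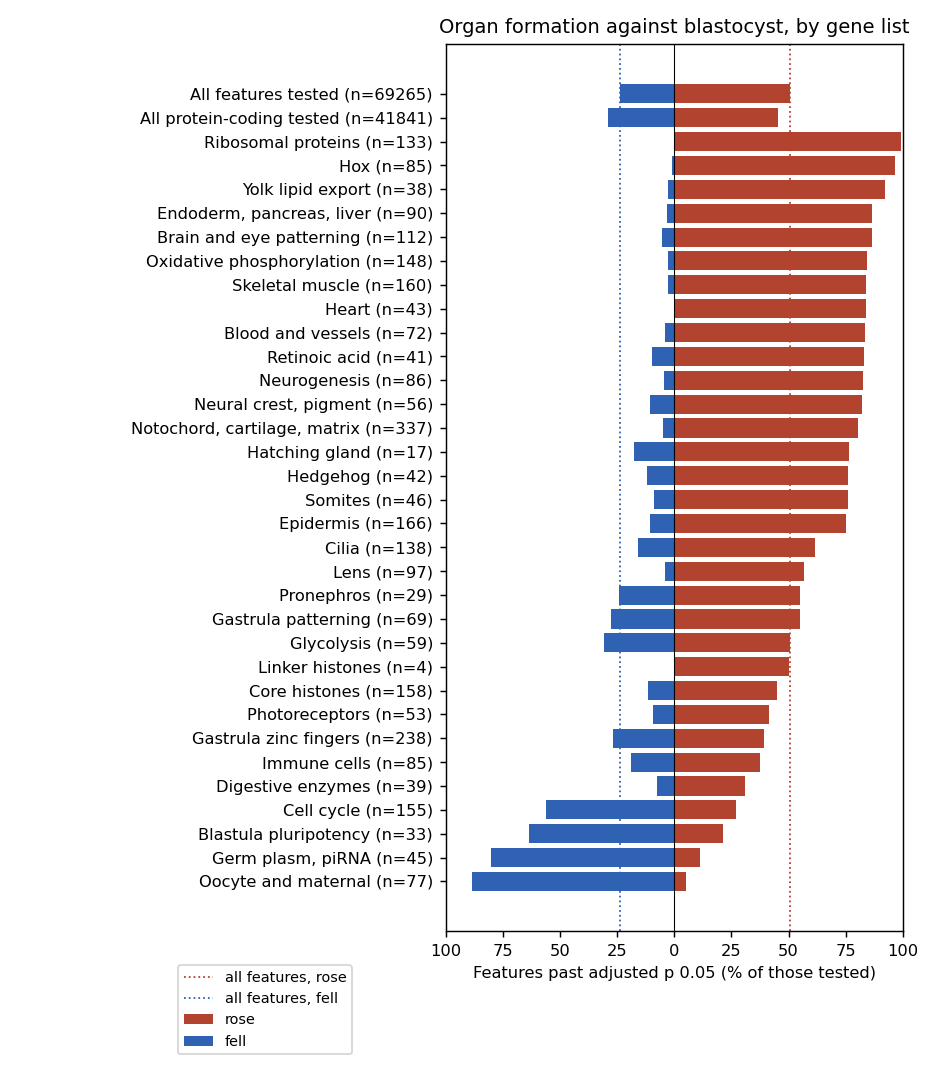
Percentage of the tested members of each gene list that rose (right, red) or fell (left, blue) from blastocyst to organ formation, with n the number tested and dotted lines at the 50.5% and 23.6% of all features. The lists of maternal, germ plasm, pluripotency and cell cycle genes have more members that fell than rose, and the organ lists more that rose.

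Messages of the egg fell. Of 77 tested oocyte and maternal genes 68 fell and 4 rose, with a median log2 change of -4.71. The gene wee2, an oocyte kinase that restrains cyclin-dependent kinase 1, had 399, 385 and 386 CPM at blastocyst and 0.103, 0 and 0.158 CPM at organ formation, a log2 change of -12.09 (SE 1.02, adjusted p = 6e-14). For btg4, an adaptor of maternal mRNA deadenylation, the blastocyst libraries had 262, 301 and 330 CPM and the organ formation libraries 0.411, 0.149 and 0.578. The groups of both genes lay far apart with no overlap, and wee2 was already down to 3.89, 8.56 and 13.5 CPM at gastrulation. The 3 copies of zar1, the zygote arrest gene of the oocyte, all fell, with log2 changes of -5.86 for zar1 itself, -6.20 for LOC109097738 and -7.47 for LOC109047924. The oocyte-specific histone mRNA binder slbp2 fell from a mean of 82.4 to 0.0691 CPM. A beta-2 adrenergic receptor-like gene (LOC109065265), for which no role in the egg is given here, went from 57.0, 63 and 57.3 CPM to 0, 0.0496 and 0.0526. A homeobox gene annotated SAX-1-like (LOC109105546) fell from 1040, 936 and 884 CPM to 0.823, 0.743 and 0.631 (log2 change -10.33, SE 0.23, adjusted p = 4.3e-19). Its mean at the cleavage stage, before blastocyst, was 576 CPM. Other large falls were of genes with little or no RNA at cleavage. A piggyBac transposable element-derived gene (LOC109113093) had means of 0.195 CPM at cleavage, 256 at blastocyst and 0.0866 at organ formation. The gastrula zinc finger gene LOC109112486 had 0, 36.3 and 0.0171.

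Germ plasm and piRNA genes, which protect and mark the germ line, followed the maternal pattern in most members: 36 of 45 fell and 5 rose, with a median log2 change of -4.64. The tudor gene tdrd6, a scaffold of germ granules, had 311, 283 and 345 CPM at blastocyst and 4.88, 4.61 and 6.15 at organ formation. Both copies of the germ cell helicase ddx4 fell, with log2 changes of -3.67 for ddx4 and -5.02 for LOC109076520. The copy named ddx4 had 54.8, 47.1 and 46.1 CPM at blastocyst and 88.0, 67.6 and 53.6 at gastrulation, whereas LOC109076520 had a mean of 2.81 at gastrulation. Both tested copies of nanos3, needed for germ cell survival, fell, while nanos1, a translational repressor of the same family that was named after its values were seen, rose from 0.0237, 0.0494 and 0.0484 CPM to 5.81, 7.83 and 8.46.

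Regulators of the blastula were mostly lower at organ formation: of 33 tested, 21 fell and 7 rose, with a median log2 change of -1.99. The gene pou5f3, the fish relative of mammalian Oct4, had 385, 363 and 366 CPM at blastocyst, 435, 510 and 443 at gastrulation and 6.43, 7.14 and 5.94 at organ formation. Its copy LOC109046005 had 406, 373 and 335 CPM, then 459, 535 and 451, then 6.32, 4.26 and 3.21. Both were thus low only in the organ formation libraries of these 3 stages. The 4 copies of foxh1, a nodal pathway transcription factor, all fell but took different routes. The copy LOC109111626 had 185, 149 and 177 CPM at blastocyst and only 1.3, 1.14 and 1.44 at gastrulation, while the copy named foxh1 had 23.7, 21.2 and 21.2 CPM at blastocyst and 28.9, 41.7 and 31.1 at gastrulation. The eomesodermin-like copies LOC109111062 and LOC109057899 were picked for high blastocyst levels, which favours a fall, and any others are not described here. They fell by 4.49 and 4.39 on the log2 scale. Within the SoxB1 group, which keeps cells in a neural or pluripotent progenitor state, both sox19b copies fell and both sox19a copies rose, the latter named after their values were seen. The sox19b-like copy LOC109057998 went from 378, 338 and 320 CPM to 65.4, 71.5 and 65.6, and the sox19a copy LOC109090287 from 64.7, 47.3 and 42.4 CPM to 331, 348 and 316.

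**Figure D2:**
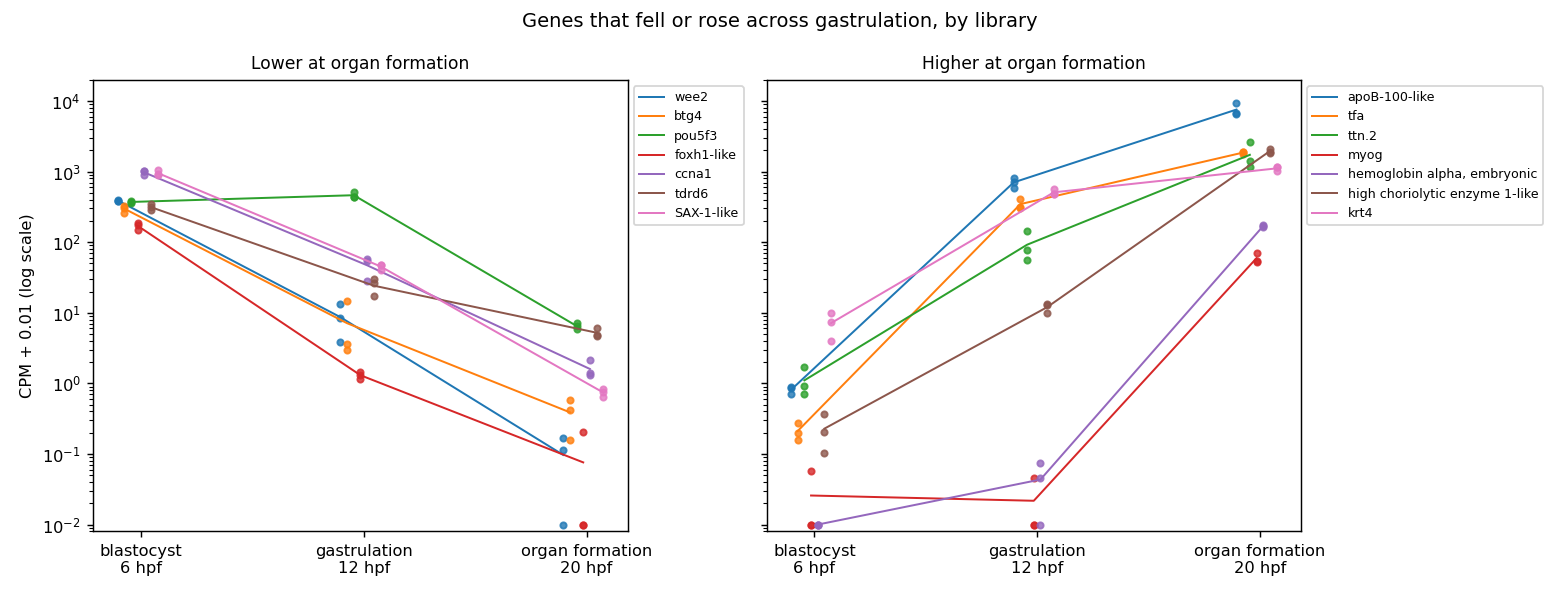
CPM plus 0.01 on a log axis in each library (points) with stage means (lines) at blastocyst, gastrulation and organ formation for genes that fell (left) or rose (right). In TMM-scaled CPM the falling genes shown were lower at gastrulation than at blastocyst, except pou5f3. That gene had 435 to 510 CPM at gastrulation and 5.94 to 7.14 at organ formation, and its small rise to gastrulation depends on the scaling.

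Cell cycle genes split. Of 155 tested, 87 fell (56.1%) and 42 rose (27.1%), with a median log2 change of -0.64. Cyclin A1 (ccna1), the A-type cyclin of the germ line and early embryo, fell from 1010, 893 and 1010 CPM to 2.11, 1.29 and 1.37 (log2 change -9.25, SE 0.24, adjusted p = 6.2e-17). The cyclin A2-like gene LOC109101561 fell less, from 831, 720 and 740 CPM to 118, 131 and 119. Parts of the list were separated by product name, and the MCM genes named below were chosen, after the values were seen. Of 10 cyclin A and B genes 9 fell and none rose, while both cyclin D genes rose. Of 17 minichromosome maintenance (MCM) helicase genes, which license replication origins, 10 rose and 3 fell. Over all protein-coding features 45.6% rose and 29.0% fell, so the MCM counts alone do not set these genes apart. The MCM falls were led by copies whose product names call them maternal, a naming taken from Xenopus. The maternal mcm6-like gene (mcm6l) had 238, 250 and 222 CPM at blastocyst and 1.23, 2.63 and 1.37 at organ formation. The MCM6-like copy LOC109054529 had 0.758, 1.73 and 0.799 CPM at blastocyst and 159, 173 and 159 at organ formation. Likewise the maternal mcm3-like gene (LOC109044818) fell by 7.98 on the log2 scale (SE 0.37) and the zygotic mcm3-like gene (LOC109053388) rose by 5.13 (SE 0.22). The maternal members of these pairs were high at the earlier stage and the other members high at the later one, with no overlap of libraries. The pairs did not change in step: at gastrulation mcm6l still had 169, 192 and 153 CPM, while LOC109044818 had 4.23, 9.47 and 7.14.

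**Figure D3:**
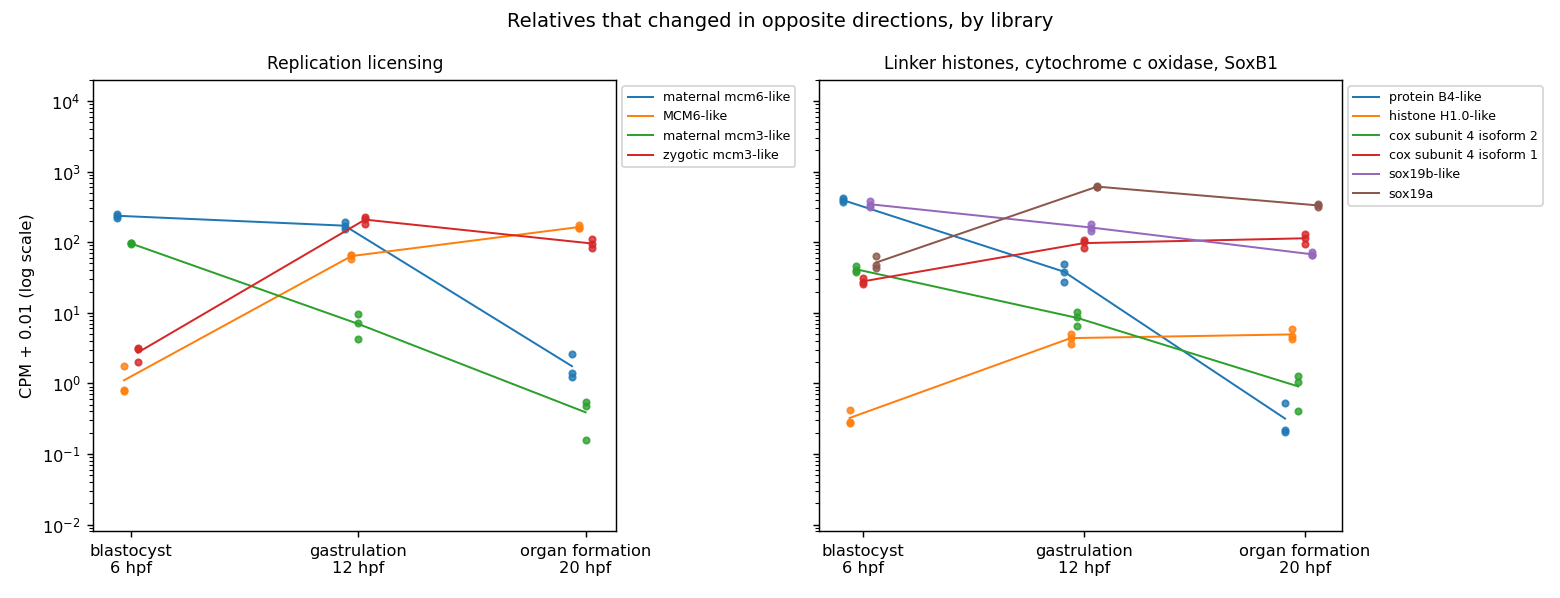
CPM plus 0.01 on a log axis in each library (points) with stage means (lines) for related genes that changed in opposite directions, with replication licensing genes on the left and linker histones, cytochrome c oxidase subunit 4 and SoxB1 genes on the right. The maternal gene mcm6l goes from 222 to 250 CPM down to 1.23 to 2.63 CPM, and the MCM6-like copy LOC109054529 up to 159 to 173 CPM.

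Some linker histone and cytochrome c oxidase genes also changed in opposite directions, with smaller rises. The protein B4-like gene (LOC109079808), named for the linker histone of the Xenopus egg, fell from 392, 372 and 419 CPM to 0.514, 0.198 and 0.210. Of 4 tested genes named histone H1, 2 H1.0-like copies rose, LOC109094231 from 0.403, 0.272 and 0.266 CPM to 5.81, 4.66 and 4.31, and none fell. The cytochrome c oxidase subunit 4 isoform 2 gene (LOC109078480), an exception within its list that was named after its values were seen, fell from 39.7, 38.2 and 45.9 CPM to 1.03, 0.396 and 1.26. The isoform 1 gene (LOC109088168) rose from 27.6, 25.3 and 30.6 CPM to 116, 129 and 95.6.

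Of 69 signals and factors that pattern the gastrula, 38 rose (55.1%) and 19 fell (27.5%). Among all protein-coding features 45.6% rose and 29.0% fell. The direction of this list depended on processing, because limma on log2(RPKM + 1) called 24 rises and 25 falls. The organizer gene goosecoid (gsc) fell from 8.84, 7.74 and 8.88 CPM to 0.566, 0.0991 and 0.0526, after 43.0, 37.3 and 52.9 at gastrulation. The endoderm determinant sox32 had 1.11, 1.61 and 0.653 CPM at blastocyst and 0.0514, 0.0496 and 0.158 at organ formation, although it reached 116, 144 and 164 at gastrulation. The posterior homeobox gene cdx4 had 1.14, 0.816 and 0.871 CPM, then 331, 397 and 342, then 46.0, 54.3 and 41.4. The brachyury homolog LOC109098181, a mesoderm and notochord factor, rose by 1.31 on the log2 scale (SE 0.25, adjusted p = 0.00013), while both copies of the notochord homeobox gene noto fell.

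Genes for the export of yolk lipid rose. Fish yolk syncytial layer, and later liver and intestine, package yolk lipid into lipoproteins built on apolipoprotein B. Of 38 tested members 35 rose and 1 fell, with a median log2 change of 11.26, or 9.41 when the 19 members without a blastocyst read were set at the lower bound that 3 reads over the stage allow. The apolipoprotein B-100-like gene LOC109112641 had 0.687, 0.865 and 0.847 CPM at blastocyst and 9410, 6490 and 6780 at organ formation (log2 change 13.20, SE 0.45, adjusted p = 1.7e-11). Another copy, LOC109108036, had no read in any blastocyst library and 1960, 1640 and 1740 CPM at organ formation, at least 73660-fold higher. These 2 genes had 592 to 810 and 190 to 220 CPM at gastrulation, between the compared stages. The member that fell, the iron exporter slc40a1, went from 51.4, 49.7 and 53.2 CPM to 33.7, 32.9 and 34.8, with 13.3, 12.3 and 11.9 at gastrulation. It was named after its values were seen.

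Endoderm, pancreas and liver genes moved the same way in 78 of 90 tested members, with 3 that fell. Transferrin (tfa), the iron carrier of plasma, rose from 0.190, 0.148 and 0.266 CPM to 1800, 1870 and 1910. The alpha-1-antitrypsin homolog LOC109112546, a plasma protease inhibitor, rose from 0.190, 0.915 and 0.218 CPM to 1640, 1840 and 1760. Intestinal fatty acid-binding protein (fabp2) had no blastocyst read and 580, 529 and 553 CPM at organ formation, at least 22900-fold higher. The members that fell were the transcription factors sox32, hnf1ba and pdx1, with log2 changes of -3.65, -1.40 and -0.89, of which pdx1 was named after its values were seen.

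Skeletal muscle genes rose in 134 of 160 tested members and fell in 4, with a median log2 change of 6.92 (6.44 with 57 members at their bound). The determination factor myod1 rose from 0.355, 0.692 and 0.581 CPM to 85.4, 111 and 87.0, and the differentiation factor myogenin (myog) from 0.0474, 0 and 0 to 54.1, 70.7 and 53.1. At gastrulation myod1 averaged 26 CPM, and myog 0.0117. The sarcomere gene titin-like ttn.2 rose from 0.900, 0.692 and 1.69 CPM to 2590, 1180 and 1410 (log2 change 10.61, SE 0.57), with 55.1, 77.1 and 144 at gastrulation. The titin-like copy LOC109090096 had 4110, 1730 and 1970 CPM at organ formation, so that the first library of that stage was the highest for both. The summed muscle list ranged from 11600 to 18200 CPM at that stage, against 176 to 189 at blastocyst. Cardiac genes rose in 36 of 43 tested members and none fell. The regulatory light chain of cardiac myosin (LOC109096875) had 0, 0 and 0.121 CPM at blastocyst and 113, 164 and 135 at organ formation. Among 5 copies of the heart factor nkx2.5, 3 rose and 2 did not pass, the copy named nkx2.5 having 1.07, 1.78 and 2.03 CPM before and 0.977, 0.644 and 1.47 after.

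Somite genes rose in 35 of 46 members and fell in 4. The Notch ligand deltaD (dld), part of the segmentation oscillator, rose from 0.498, 0.766 and 0.920 CPM to 81.5, 77.4 and 78.1, after a mean of 206 at gastrulation. Hox genes, which give body segments their identity along the axis, rose in 82 of 85 tested members and fell in 1. Summed levels of paralogue groups 1 to 4 were 8.28 to 12.4 CPM at blastocyst, 385 to 499 at gastrulation and 491 to 507 at organ formation. Groups 9 to 13, which pattern the trunk and tail, summed to 18.2 to 23.2 CPM, then 68.7 to 76.9, then 426 to 475. Groups 5 to 8 summed to 1.33 to 2.08 CPM, then 97.0 to 111, then 282 to 301. The Hox-B1b gene LOC109058403 made up much of the gastrulation sum of groups 1 to 4, with 197, 224 and 174 CPM there and 53.8, 52.5 and 50.3 at organ formation. The gene that fell, hoxd13a, had 3.86, 3.41 and 4.36 CPM at blastocyst and 0.771, 0.248 and 0.736 at organ formation, and was named after its values were seen.

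Brain and eye patterning genes rose in 97 of 112 members and neurogenic genes in 71 of 86. The dorsal neural tube factor Pax-3-like (LOC109100747) had 0, 0.0742 and 0 CPM at blastocyst and 93.8, 100 and 101 at organ formation, a count ratio of 4060 with a 95% exact interval of 1390 to 19700 for counting error. Both elavl3 copies, which mark postmitotic neurons, rose, with log2 changes of 6.48 for LOC109110668 and 6.00 for LOC109110288. Head genes were not uniform: otx2 rose from 0.166, 0 and 0.266 CPM to 13.6, 18.5 and 16.3, while otx1 fell from 53.3, 58.3 and 59.4 CPM to 13.7, 12.0 and 11.9. Of 8 Pax-6 copies, which direct eye development, 6 rose and 2 fell, LOC109103971 reaching 42.3, 45.3 and 39.2 CPM and LOC109051712 going from 4.55, 4.45 and 5.83 to 0.360, 0.496 and 0.315. Neural crest and pigment genes rose in 46 of 56 members and fell in 6. All 3 SOX-10-like copies, crest and glial factors, rose, and LOC109055783 had no blastocyst read and 23.6, 26.4 and 22.9 CPM at organ formation, at least 1005-fold higher. A snail-like gene (LOC109098536), which controls cell migration, fell from 144, 149 and 155 CPM to 54.1, 62.1 and 63.4, while another (LOC109098523) rose from 12.7, 9.10 and 10.6 to 63.3, 74.1 and 65.3. Lens genes, largely crystallins, rose in 55 of 97 members (56.7%), against 50.5% of all features and 45.6% of protein-coding ones. Of the 97 lens genes 4 fell (4.12%) and 38 did not pass. Falls made up 23.6% of all features and 29.0% of protein-coding ones. No blastocyst read was found for 55 lens genes, of which 32 rose, a smaller share than the 9464 of 10339 such features overall that rose.

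Blood and vessel genes rose in 60 of 72 members and fell in 3. The embryonic hemoglobin alpha gene LOC109056219 had no blastocyst read, a mean of 0.0334 CPM at gastrulation and 166, 175 and 167 CPM at organ formation, at least 7002-fold higher than at blastocyst. The hematopoietic factor tal1 rose from 0.118, 0.198 and 0.605 CPM to 43.4, 49.8 and 41.6. The endothelial receptor kdr-like LOC109110929 rose from 0.569, 1.51 and 0.799 CPM to 92.4, 75.4 and 78.1. Notochord, cartilage and matrix genes rose in 271 of 337 members and fell in 16. Laminin beta-1-like (lamb1a), a basement membrane chain, rose from 13.1, 13.2 and 5.66 CPM to 644, 712 and 686, after a mean of 3118 at gastrulation, and collagen alpha-1(XI)-like (LOC109091962), a cartilage collagen, from 0.261, 0.494 and 0.0726 to 536, 607 and 563.

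Epidermal genes rose in 125 of 166 members and fell in 18. Keratin krt4 rose from 7.42, 10 and 3.99 CPM to 1020, 1160 and 1150. The falls held cell adhesion genes, which were named after their values were seen. An epithelial cell adhesion molecule-like gene (LOC109046614) fell from 407, 357 and 396 CPM to 6.02, 7.48 and 7.67, and claudin-like cldng, of the tight junction, from 82.3, 92.3 and 92.4 to 0.0514, 0 and 0.420. Hatching gland genes rose in 13 of 17 tested members and fell in 3. The high choriolytic enzyme 1-like gene LOC109047084, a protease that digests the egg envelope, rose from 0.0948, 0.198 and 0.363 CPM to 1920, 1860 and 2070 (log2 change 13.10, SE 2.26, adjusted p = 0.00011). A copy of the same name (LOC109045423) went the other way, from 29.4, 29.6 and 29.3 CPM to 0.668, 0.496 and 0.578. The libraries of the 2 stages did not overlap for either copy.

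Retinoic acid genes rose in 34 of 41 members and fell in 4, the binding protein crabp2a rising from 0, 0.297 and 0.169 CPM to 80.5, 84.6 and 83.7 and the degrading enzyme CYP26A1-like (LOC109052662) falling from 99.1, 78.4 and 87.6 to 20.9, 29.8 and 25.3. Hedgehog genes rose in 32 of 42 members and fell in 5. The ligand shha rose from 0.0474, 0.272 and 0 CPM to 22.4, 29.1 and 24.5, and the receptor ptch1, itself a target of the pathway, from 3.98, 3.19 and 4.36 to 128, 130 and 144. Cilia genes rose in 85 of 138 members (61.6%) and fell in 22 (15.9%). This majority turned to 27 rises against 30 falls with limma on log2(RPKM + 0.1). Pronephros genes rose in 16 of 29 members (55.2%) and fell in 7 (24.1%), against 45.6% and 29.0% of protein-coding features.

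Cytosolic ribosomal proteins rose in 132 of 133 tested members and none fell, with a median log2 change of 3.76 and a middle range of 3.25 to 4.2. Ribosomal protein L4 (rpl4) went from 45.2, 48.0 and 42.3 CPM to 1330, 1440 and 1370, and the list summed to 3800 to 4250 CPM at blastocyst and 47500 to 48600 at organ formation. Nuclear oxidative phosphorylation subunits rose in 125 of 148 members and fell in 4, with a median of 1.75. Of 59 glycolysis genes 30 rose (50.8%) and 18 fell (30.5%), against 45.6% and 29.0% of protein-coding features. The list summed to 1010 to 1090 CPM at blastocyst and 2600 to 2860 at organ formation. The glycolytic enzyme gene gapdh fell from 192, 211 and 217 CPM at blastocyst to 31.4, 41.8 and 28.3. Core histone genes rose in 71 of 158 members (44.9%), a share near the 45.6% of protein-coding features, and fell in 18 (11.4%). This balance turned to 20 rises and 55 falls with the RPKM denominators. Gastrula zinc finger genes, a large family named from Xenopus, rose in 93 of 238 members (39.1%) and fell in 64 (26.9%). Scaling by library totals turned this to 77 and 79. The median log2 changes of these last lists, 0.39 and 0.30, were below that of all features.

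Markers of cell types that 20 hpf embryos should hold in small number were read as a reference. Photoreceptor genes rose in 22 of 53 members and fell in 5, digestive enzyme genes in 12 and 3 of 39, and immune cell genes in 32 and 16 of 85. These shares of rises, 41.5%, 30.8% and 37.6%, were below the 50.5% of all features and the 45.6% of protein-coding ones. Their median log2 changes, with members without a blastocyst read at their bound, were 1.64, 1.82 and 0.74. The first and second of these lay above the 1.13 of all features, and all lay above the 0.58 of protein-coding features. In the immune list the inflammatory cytokine gene interleukin-1 beta-like LOC109097442 had 29.8, 30.3 and 35.4 CPM at blastocyst and 0.720, 1.78 and 2.15 at organ formation. The summed immune list had 205 to 243 CPM at blastocyst and 114 to 118 at organ formation. The part of such cells in the other results was not tested.

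Of 27368 tested lncRNA features 15864 rose and 4184 fell, with a median log2 change of 2.36, against 19069 and 12154 of 41841 protein-coding features and a median of 0.58. The 3974 lncRNAs with a gene identifier rose in 48.8% of cases, with a median of 1.40, against 45.6% of protein-coding features. The 23394 known only from StringTie assembly rose in 59.5%, with a median of 2.61. The lncRNA share of all counts was 6.08% to 6.79% at blastocyst and 10.9% to 12.3% at organ formation. Of the lncRNAs 6479 had no blastocyst read, and 6125 of these rose. Among all tested features without a blastocyst read 9464 of 10339 rose, and among the protein-coding ones 3333 of 3854. These features had to be detected at another stage to be tested at all. The lncRNA with the largest rise, MSTRG.71717, had no blastocyst read and 497, 369 and 387 CPM at organ formation, at least 17260-fold higher. MSTRG.57324, with the largest fall among the ranked lncRNAs, had 120, 70.7 and 103 CPM at blastocyst and 0, 0.0496 and 0 at organ formation.

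**Figure D4:**
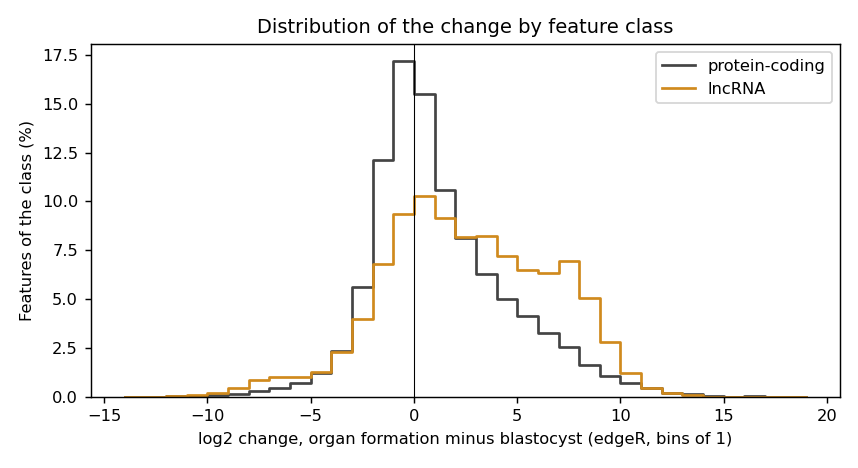
Share of the protein-coding and lncRNA features tested in each bin of 1 of the log2 change from blastocyst to organ formation. The lncRNA curve holds more of its features to the right, with a median of 2.36 against 0.58.

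Copies that carry the same product name usually changed in the same direction when both were called. Names were compared without a final -like. Among 4903 product names shared by exactly 2 tested protein-coding features, both copies were called for 3095. Both rose for 1560 of these names, both fell for 1052, and the copies went in opposite directions for 483, which is 15.6%. The DNA replication licensing factor mcm2-like copies, chosen after their values were seen, were such a pair: LOC109062193 rose from 5.24, 5.14 and 3.53 CPM to 252, 285 and 271, and LOC109050926 went from 164, 181 and 174 to 139, 138 and 134 (log2 change -0.34, SE 0.14, adjusted p = 0.032). A shared name does not show that the copies come from the same duplication. Unrelated features would often agree too, as 19069 protein-coding features rose and 12154 fell.

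Some features had similar levels at blastocyst and organ formation but differed at gastrulation. A feature was called similar at both ends when the 90% interval of its log2 change lay within 2-fold, which 8554 features met (12.3%). Of these, 1228 (1.77% of all tested) were at least 2-fold higher at gastrulation than at both stages and 1019 (1.47%) at least 2-fold lower, each with adjusted p under 0.05 in both comparisons. The gastrulation libraries enter both of these comparisons. Similar does not mean unchanged, since a feature that stayed within 2-fold could still be called risen or fallen. Over all tested features, gastrulation was higher than blastocyst for 44.4% and lower for 22.3%, and higher than organ formation for 19.8% and lower for 28.1%. The calls depended on scaling, and 116 of the higher and 241 of the lower features met every condition under all 4 scalings compared, namely TMM, library totals, DESeq2's size factors and the RPKM denominators. The features named in the next paragraph and in the one on dips are among these. Without the conditions on fold and similarity, 694 of the 1228 higher features (56.5%) still differed from both stages under all 4 scalings. All 1019 lower features did so, each in the same direction and at adjusted p under 0.05 in both comparisons.

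Chordin (chrd), a secreted antagonist of bone morphogenetic proteins made by the organizer, had 22.7, 24.8 and 10.8 CPM at blastocyst, 1010, 1080 and 952 at gastrulation and 21.6, 27.9 and 27.6 at organ formation. The log2 difference of chrd at gastrulation was 5.70 from blastocyst (adjusted p = 8.4e-14) and 5.30 from organ formation (adjusted p = 7.7e-13). The ankyrin repeat gene abtb2a had 8.44, 7.84 and 6.12 CPM, then 200, 241 and 190, then 10.3, 8.42 and 7.99. The tripartite motif gene trim16 had 11.1, 10 and 7.45 CPM, then 323, 364 and 243, then 12.3, 15 and 12.5. These genes were taken from the largest gastrulation differences, so the gap from the blastocyst and organ formation libraries follows from the choice. Further genes of this shape were named after their values were seen. A secreted frizzled-related protein 1-like gene (LOC109090573), an extracellular Wnt inhibitor, had 22.5, 21.0 and 19.6 CPM, then 339, 427 and 432, then 26.3, 27.2 and 24.5. The retinal reductase dhrs3b, which limits retinoic acid production, had 15.7, 16.4 and 18.3 CPM, then 158, 183 and 170, then 14.2, 17.2 and 18.3. The variant histone H2AX gene (LOC109090526) had 315, 317 and 300 CPM, then 2180, 2570 and 2050, then 419, 411 and 417.

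Other gastrulation peaks, also named after their values were seen, were called with TMM but not under every scaling. The apelin receptor ligand apela, which guides mesendoderm migration in zebrafish, had 11.4, 6.40 and 9.36 CPM, then 43.0, 44.8 and 53.3, then 8.64, 8.03 and 8.2. Apelin receptor copies shared the peak, LOC109097801 with 25.5, 17 and 4.38 CPM, then 72.0, 82.4 and 58.2, then 8.74, 15.3 and 14.7. The third blastocyst library was low for this receptor as it was for chrd. Among all features with a mean of at least 1 CPM at blastocyst that library was the lowest of the 3 in 34.1%. The share was 36.5% of those that rose and 31.5% of those that fell, both near that of all.

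The features with a dip at gastrulation that are named here include metabolic and membrane genes, and no theme among them was tested. Palmdelphin-like LOC109053521 had 25.8, 20.0 and 27.2 CPM at blastocyst, 1.91, 1.17 and 0.844 at gastrulation and 32.8, 38.1 and 34.9 at organ formation. The neurobeachin-like gene LOC109063167 had 22.7, 26.9 and 20.3 CPM, then 1.84, 1.92 and 2.5, then 32.7, 28.7 and 36.9. Both genes recovered to at least their blastocyst level in every library. Hexokinase 2 (hk2), the first enzyme of glycolysis, had 17.1, 19.2 and 20.2 CPM, then 2.11, 4.13 and 3.66, then 18.8, 20.1 and 23.9. Liver-type phosphofructokinase-like LOC109057472, which commits sugar to glycolysis, had 11.8, 16.8 and 12.9 CPM, then 3.00, 3.52 and 4.43, then 15, 19.7 and 16.7. By the TMM calls 5 of 59 genes in the glycolysis list dipped, against 1.47% of all tested features and 876 of 41841 protein-coding ones. Both hk2 and LOC109057472 are among the 5 and were named after their values were seen. The sugar nucleotide transporter family gene slc35c2, likewise, had 65.9, 72.9 and 70.5 CPM, then 9.69, 12.0 and 9.46, then 68.1, 74.2 and 66.0, with a net log2 change of -0.01 (SE 0.10).

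**Figure D5:**
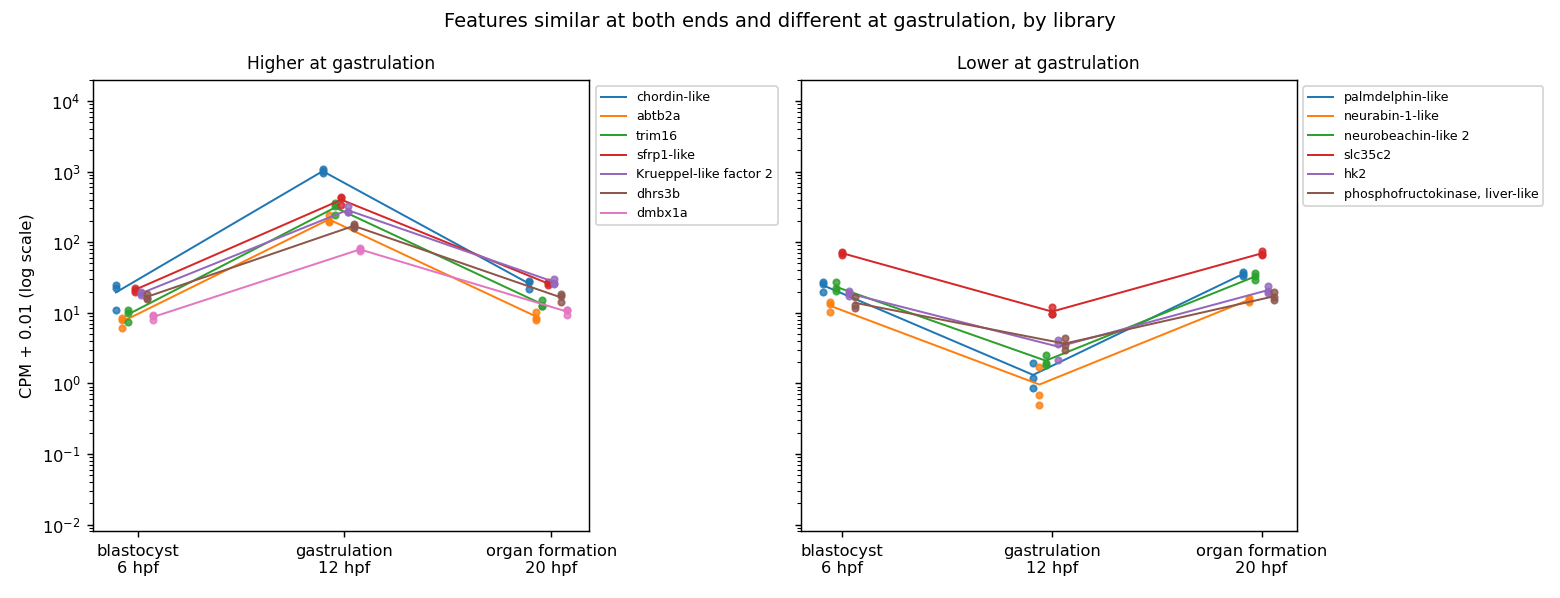
CPM plus 0.01 on a log axis in each library (points) with stage means (lines) for genes whose blastocyst and organ formation levels were similar and whose gastrulation level was higher (left) or lower (right). Chordin goes from 10.8 to 24.8 CPM up to 952 to 1080 and back to 21.6 to 27.9.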

How the data were processed

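Total RNA of whole embryos was depleted of rRNA and made into strand-specific libraries, per the labels' protocols. The submitters' processing notes name HISAT2, StringTie 1.3.3b, featureCounts and edgeR, while the build used and what each tool did were not given. The deposited read counts per feature are raw, and the authors also deposited RPKM, whose library sizes were not given. The counts of all 18 libraries were fitted with edgeR 4.0.16 (filterByExpr, TMM, quasi-likelihood with robust dispersion, 1 coefficient per stage), and p-values were adjusted by Benjamini-Hochberg over the 69265 features tested. CPM are counts divided by TMM-scaled library sizes. Gene symbols came from the files and from RefSeq names. The members and the gene lists were chosen with earlier results of these data known, and lists were trimmed by product name after values were seen. Genes named were taken from the 8 largest changes each way and the 3 largest lncRNA changes each way. Further sources were the 4 members with the highest CPM of each list, the 8 largest gastrulation differences each way and a set of textbook regulators. Only part of these sets is named, so the genes shown are a selection. Rankings by size of change applied a floor of 10 to the average CPM. They can miss larger changes, such as a log2 change of -12.88 in the gastrula zinc finger list. Genes from outside these sets are said to be chosen after their values were seen. Where blastocyst had no read, a fold is a lower bound from 3 reads over the stage. Where a stage had 1 to 3 reads, the ratio has an exact 95% interval for counting error only. On simulated counts with the same 69265 features, 100 features were changed 2-fold and 100 features 4-fold, whatever their level. Of these changes 25% and 51% were recovered, with 11 false calls. Among features with many blastocyst counts 100% of the 4-fold changes were recovered. So few changes make the adjusted p stricter than in the data, where 74.1% of features were called, so these shares do not measure recovery there. Alternatives used DESeq2 1.42.0, limma 3.58.1 on RPKM, other scalings and filters, and left-out libraries. Replicate numbers were not used to pair libraries across stages in the main fit.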

Additional observations from a re-analysis of the deposited data

How the results depend on the processing

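The counts of 34963 rises and 16347 falls stayed within 1.5 times under most alternatives. The exceptions were 10000 falls when edgeR tested against a 2-fold change, and 18088 and 16363 rises with limma on log2(RPKM + 0.1) and log2(RPKM + 1). Leaving out 1 library gave 31778 to 35010 rises and 15467 to 19132 falls. Features higher at gastrulation numbered 337 with the RPKM denominators, 462 with library totals, 144 at 4-fold and 615 with the interval within 1.5-fold, against 1228. Features lower there numbered 274 at 4-fold and 296 within 1.5-fold, against 1019. Replicate numbers did not pair the blastocyst and organ formation libraries (correlations of -0.0147, -0.0286 and -0.0165). Same-numbered blastocyst and gastrulation libraries had small positive correlations of 0.0783, 0.0142 and 0.0735. Those of gastrulation and organ formation had -0.00266, 0.0598 and 0.00472. The replicate block gave 34625 rises, 16068 falls, 1200 higher and 974 lower. Some lists changed the side with more members. With limma on log2(RPKM + 0.1), then + 1, rises against falls were 27 and 30 at both pseudocounts for cilia, 4 and 5, then 3 and 5 for digestive enzymes, 19 and 55, then 19 and 53 for core histones, 8 and 12, then 7 and 12 for immune genes, and 45 and 92, then 44 and 89 for gastrula zinc fingers. They were 6 and 7 for photoreceptors at + 0.1, and 24 and 25 for gastrula patterning at + 1. With the RPKM denominators they were 20 and 55 for core histones and 61 and 98 for zinc fingers, and with library totals 77 and 79 for zinc fingers. A minimum of 1 CPM gave 18 and 19 for immune genes and 78 and 79 for zinc fingers, and the 6 libraries alone 16 and 18, and 75 and 81. The causes were not tested.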
